A study of Danio rerio with 50 samples.

Results

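The genes described here encode RNA splicing factors, the proteins that recognise splice sites and remove introns from primary transcripts. They were taken by name, as the genes whose current symbol starts with snrp, snrnp, sf3a, sf3b, lsm with a digit, srsf, sfrs, hnrnp, hnrp, prpf or u2af, or is sf1. The rule took 80 of the 9163 named genes tested, with 95 of the 22046 tested probes, and all 95 probes of these genes passed the filter on missing values. RNA levels were read on 2-colour arrays in livers of male zebrafish (Danio rerio) after exposure to estradiol, the estrogen by which the liver of a laying female is brought to make yolk proteins. Exposure was to 0.5, 5 or 50 µg/L for 24 or 96 h, with untreated males as controls at both times, and the labels give no strain or age. The controls numbered 8 at 24 h and 7 at 96 h, each dose had 6 arrays at 24 h, and 0.5, 5 and 50 µg/L had 6, 4 and 7 arrays at 96 h. The descriptions count 6 replicates of 5 µg/L at 96 h, of which 4 were analysed here, and give 97 h for 6 of the 7 arrays of 50 µg/L whose titles give 96 h. Each array compared Cy5-labelled cDNA of a male with a Cy3-labelled pool of liver RNA from untreated wild-type males and females, so the level of a probe is a log2 ratio to that pool with the median of the array set to 0.

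The spliceosome is built from small nuclear ribonucleoproteins (snRNPs), each an RNA with its own proteins. In U1, U2, U4 and U5 the RNA is held by a ring of Sm proteins, and in U6 by a ring of the related LSm proteins. The SF3a and SF3b complexes and U2AF place the U2 snRNP at the branch site and the 3′ splice site, while SR proteins and hnRNPs bind exons and introns and steer the choice of splice sites. The roles named below are known from human or yeast proteins and were not measured here.

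Classes were assigned by the start of the symbol, and whether each product is part of the complex its class is named for was not checked. By class, 7 genes with 7 probes belonged to the Sm core, 4 genes with 5 probes to other proteins of U1 and U2, and 11 genes with 12 probes to branch site and 3′ splice site recognition. LSm proteins had 9 genes with 10 probes, proteins of U5, U4/U6 and the minor snRNPs 15 with 19, SR proteins 14 with 19 and hnRNPs 20 with 23. A value was present on every array for 85 of the 95 probes and on at least 46 of 50 arrays for the others. On the 35 treated arrays all 95 probes had a Cy5 spot above background on more than 50% of the arrays, as did 20257 of all 22046 tested probes. Their median Cy5 brightness over background was 760 scanner units, against 329 for all tested probes. The spread between arrays of a group was similar to that of other probes, with a median pooled SD of 0.33 on the log2 scale against 0.35 for all tested probes. A further 24 protein-coding genes that fit the rule, among them snrpf, sf3b1, sf3b2 and lsm8, had no probe named for them and were not analysed here.

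Set against the mean of its group's other arrays, each array gave an r between 0.592 and 0.951, computed over probes that are not independent. On 5 of the 35 treated arrays fewer than 60% of Cy5 spots lay above background: replicates 3, 4 and 5 of 50 µg/L at 24 h (53.6%, 44.8% and 38.9%) and replicates 3 and 4 of 50 µg/L at 96 h (26.5% and 58.8%). Signal on the 15 control arrays could not be judged, since their scanner files were not analysed here. On replicate 2 of 0.5 µg/L at 24 h, the array with the lowest correlation, the mean of 7 probes for ovary markers was 0.91, while on the other 5 arrays of the group it was -2.80 to -1.66 and on controls -2.79 to -2.16. Of 94 splicing factor probes with a value on that array, 42 lay above all 5 other arrays of the group (44.7%, against 20.6% of all tested probes) and 20 lay below them (21.3% against 36.3%). Calls with 50 µg/L that ended without the low-signal arrays, 9 of 16 described at 24 h and 8 of 18 at 96 h, are given with their adjusted p without those arrays. Ratios to a pool that the labels give as liver do not check the tissue of a sample. On control arrays the mean ratio of 12 hepatocyte probes was 2.15 to 3.07 at 24 h and 2.25 to 3.09 at 96 h, far from the 0 of equal levels, and that of 10 stellate cell probes was -3.18 to -2.39 and -3.15 to -2.59. The cause of these ratios was not tested. Because these are bulk samples, fewer cells of a type and less RNA per cell cannot be told apart. Whether the fish of a group came from a single tank is not stated in the labels, and the p-values cover only the spread between these samples.

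Compared with same-time controls, no splicing factor probe passed the threshold (adjusted p under 0.05 by limma over all 22046 probes) with 0.5 µg/L at 24 h. At that threshold 0.503% of all tested probes were called. An unadjusted p under 0.05 by limma was found for 13 splicing factor probes. The share of all tested probes at that looser threshold is not given here. With 5 µg/L at 24 h 8 of 95 rose and none fell (8.42%, against 6.08% of all tested probes). With 50 µg/L at 24 h 15 rose and 1 fell (16.8% against 12.8%). At 96 h 7 rose with 0.5 µg/L (7.37% against 3.25%), 11 rose and 1 fell with 5 µg/L (12.6% against 12.6%), and 17 rose and 1 fell with 50 µg/L (18.9% against 18%). Splicing factors as a whole were therefore called about as often as other probes in the latter pair of comparisons. Without the low-signal arrays the counts with 50 µg/L were 8 at 24 h and 12 at 96 h. How many of all tested probes were called in those fits is not given here. Whether splicing factors lost more calls than other probes is therefore not shown.

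Nearly all of these calls were rises. Falls made up 3.15% and 5.7% of all tested probes with 5 and 50 µg/L at 24 h, and rises 2.93% and 7.09%. At 96 h falls made up 1.25%, 5.48% and 8.78% of them at the 3 doses, and rises 2%, 7.12% and 9.19%. The median difference of the 95 probes from controls was 0.10, 0.17 and 0.18 with 0.5, 5 and 50 µg/L at 24 h and 0.15, 0.15 and 0.17 with the same doses for 96 h, while that of all tested probes lay between -0.02 and 0.03. In the 6 comparisons, 35 of the 95 probes measured above 0 in every one and 4 in none. Since the 3 doses of a time share their controls, these counts are not independent of each other. Over the 6 comparisons 28 probes of 27 genes were called at least once, and 67 probes were never called. Of these 28, 12 were called in 1 comparison, 7 in 2, 4 in 3, 2 in 4 and 3 in 5. The 3 probes called in 5 comparisons were those of snrpe, snrpd1 and snrpg, all of the Sm core. The shares of all tested probes called at least once, or above 0 in every comparison, are not given here. Whether these counts over the 6 comparisons are high for 95 probes is therefore not shown.

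**Figure D1:**
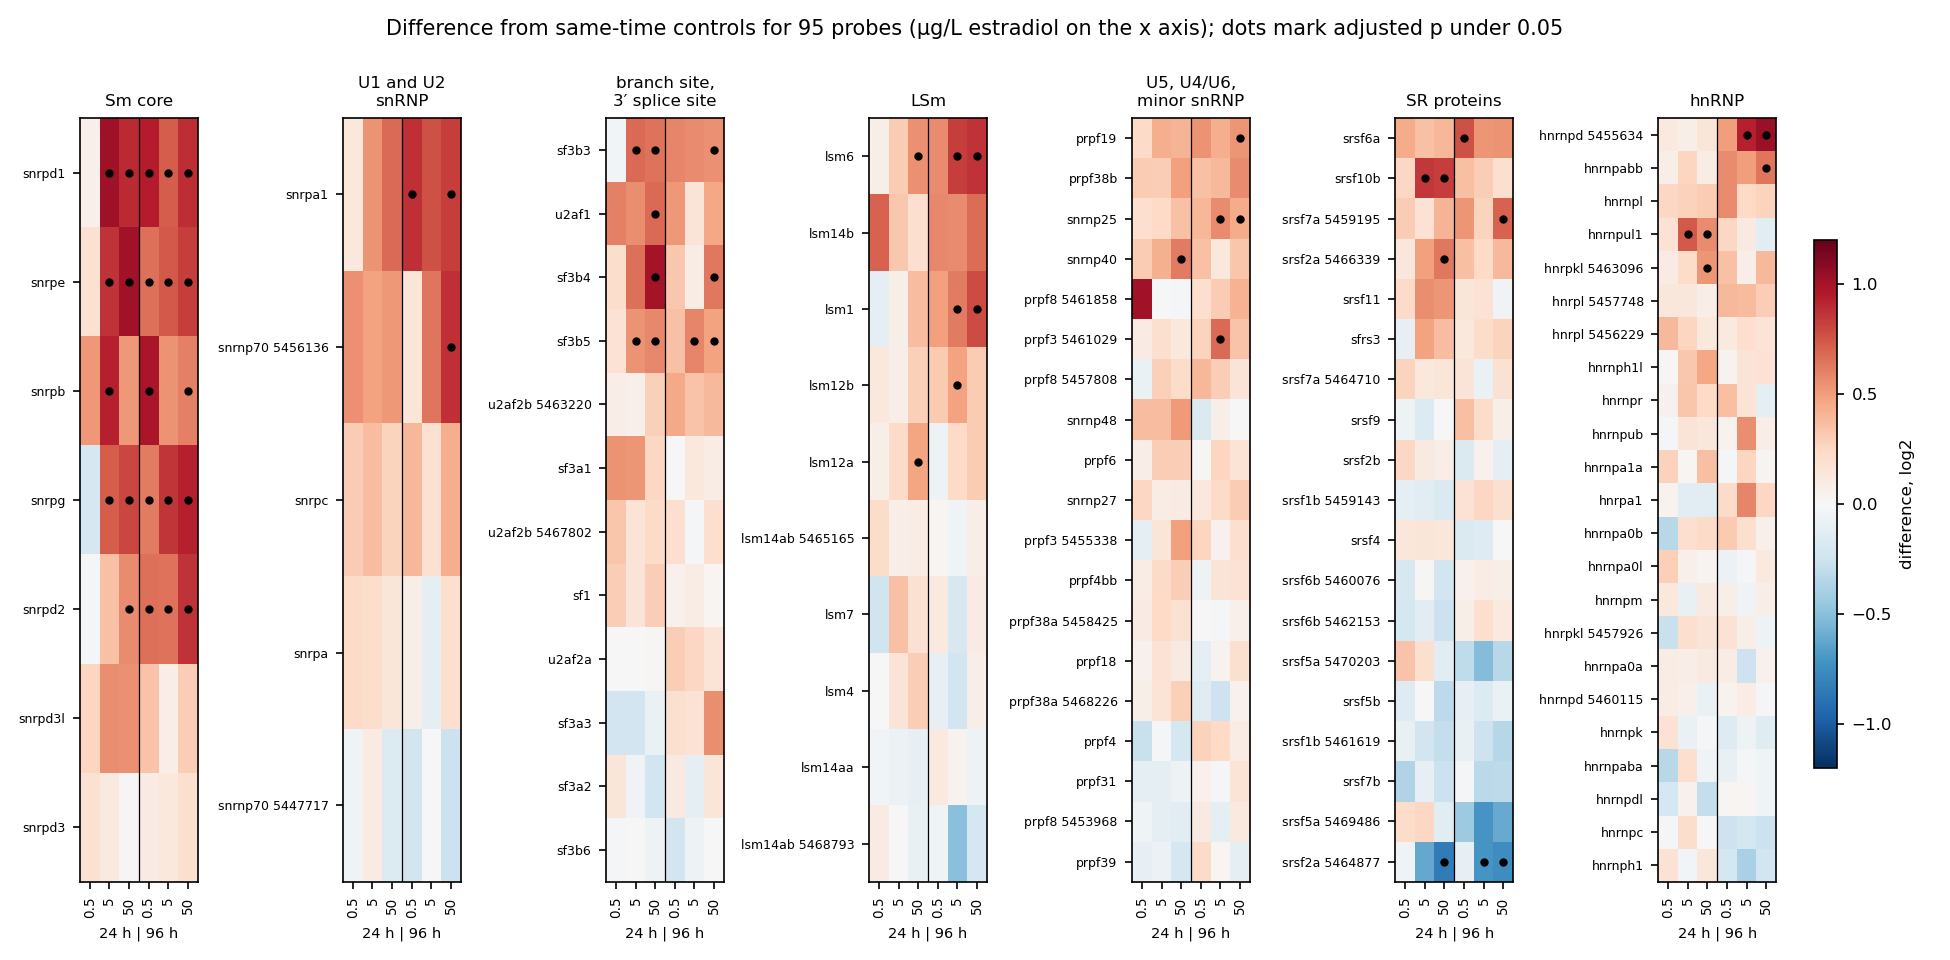
Difference from the controls of the same time (colour, log2) for each of the 95 probes, grouped by class and sorted within a class by the mean over the 6 comparisons, with estradiol dose on the x axis and a line between 24 and 96 h. Dots mark an adjusted p under 0.05; in the Sm core 5 of 7 probes carry dots, while most SR protein and hnRNP probes carry none.

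The Sm core held the highest share of calls. Of its 7 probes 4 rose with 5 µg/L and 4 with 50 µg/L at 24 h, and 5, 4 and 5 rose with 0.5, 5 and 50 µg/L at 96 h. That is 57.1% of the class for either dose at 24 h, where 2.93% and 7.09% of all tested probes rose. At 96 h it is 71.4%, 57.1% and 71.4%, where 2%, 7.12% and 9.19% did. The share with 0.5 µg/L at 96 h depended on the fit. Of the 6 calls described there, these 5 and that of snrpa1, 5 ended when only the arrays compared were fitted. The class median of the differences was 0.73 with 5 µg/L and 0.57 with 50 µg/L at 24 h, then 0.66, 0.65 and 0.83 at the 3 doses at 96 h. None of the 7 fell in any of these comparisons. The mean of the 7 probes on an array ranged from -0.89 to -0.39 on 24 h controls, from -0.22 to 0.37 with 5 µg/L and from -0.17 to 0.23 with 50 µg/L, so that at 24 h these 2 doses did not overlap with controls. With 0.5 µg/L at 24 h that mean was -0.74 to 0.27, and its highest value came from replicate 2. At 96 h the means were -1.52 to -0.53 on controls and -0.58 to 0.14, -0.53 to -0.27 and -0.50 to 0.24 with the 3 doses. The array means of 50 µg/L thus lay above all 7 controls at 96 h, by a narrow margin (lowest -0.500 against a highest control of -0.529). Those of 5 µg/L and 0.5 µg/L overlapped with the control range at their lowest arrays (-0.532 and -0.578).

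**Figure D2:**
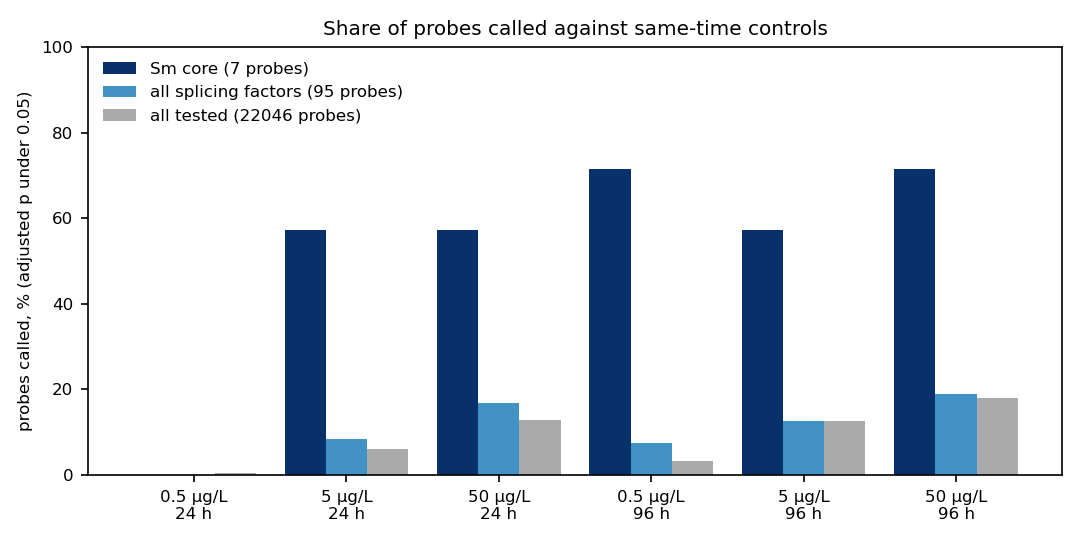
Percent of probes with an adjusted p under 0.05 against the controls of the same time (y axis, from 0 to 100%), for the 7 Sm core probes, all 95 splicing factor probes and all 22046 tested probes in the 6 comparisons on the x axis. The Sm core stands at 57.1% or 71.4% in all comparisons except 0.5 µg/L at 24 h, where it is 0%. All splicing factors stand at 12.6% and 18.9% with 5 and 50 µg/L at 96 h, against 12.6% and 18% of all tested probes. With 0.5 µg/L at 96 h they stand at 7.37% against 3.25%. Of the 6 calls described there, 5 ended when only the arrays compared were fitted.

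The gene snrpe (probe 5462977) encodes the E protein of the Sm ring. Its ratio on the 24 h controls was -1.22 to -0.64 with a median of -0.77. With 0.5 µg/L it was -1.02 to -0.28 (median -0.72), with 5 µg/L -0.35 to 0.43 (0.01) and with 50 µg/L -0.29 to 0.41 (0.22). All 6 arrays of 5 µg/L and all 6 of 50 µg/L lay above the highest control, and those of 0.5 µg/L overlapped with controls. The differences from controls were 0.18 ± 0.16 (SE of limma's fit, n = 6 and 8, adjusted p = 0.751), 0.87 ± 0.16 (1.83-fold, adjusted p = 0.000124) and 1.01 ± 0.16 (2.01-fold, adjusted p = 3.8e-06). At 96 h snrpe stood at -1.57 to -0.61 (median -1.09) on controls and at -0.71 to -0.05 (-0.45) with 0.5 µg/L. Its 4 arrays of 5 µg/L gave -0.17, -0.49, -0.33 and -0.48. With 50 µg/L the ratios were -0.72 to 0.54 (median -0.33). The 4 arrays of 5 µg/L all exceeded the highest control, whereas some arrays of 0.5 and 50 µg/L fell inside the control range. By limma's fit snrpe rose by 0.66 ± 0.16 (adjusted p = 0.0137), 0.73 ± 0.18 (adjusted p = 0.00405) and 0.83 ± 0.16 (adjusted p = 7.77e-05). The call at 0.5 µg/L and 96 h ended without replicate 2 of the controls (0.58, adjusted p = 0.0526), without replicate 3 of the treated arrays (0.58, 0.0607) and with only the arrays compared (0.0612).

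The D1 protein gene snrpd1 (probe 5447404) was also higher with both upper doses at 24 h, and its 5 µg/L value was the larger. Its controls ranged from -0.79 to -0.09 (median -0.42), 5 µg/L from 0.11 to 1.01 (0.61) and 50 µg/L from -0.02 to 0.72 (0.56). Both doses lay wholly above the controls, and 0.5 µg/L, at -0.86 to 0.57, did not. It rose by 1.02 ± 0.21 with 5 µg/L (2.02-fold, limma adjusted p = 0.000761) and by 0.90 ± 0.21 with 50 µg/L (adjusted p = 0.00159). At 96 h the controls ran from -1.81 to -0.43 (median -0.78) and the treated arrays from -0.48 to 0.61 with 0.5 µg/L and from -0.47 to 0.65 with 50 µg/L. With 5 µg/L the 4 values were -0.32, -0.40, -0.03 and 0.00096, all above the controls. The rises were 0.94 ± 0.22, 0.73 ± 0.24 and 0.89 ± 0.21 (limma adjusted p = 0.0061, 0.0376 and 0.00123). At 5 µg/L the call was lost in 5 of 11 fits without 1 array (highest adjusted p = 0.116, without control replicate 2), and at 0.5 µg/L it was lost with only the arrays compared (0.0552).

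For snrpg (probe 5448103), the G protein gene, the 24 h controls ranged from -0.31 to 0.61 (median 0.29). The 5 µg/L arrays ranged from 0.75 to 1.18 (0.92) and were all higher, while those of 50 µg/L ranged from 0.36 to 1.36 (1.103) and overlapped with controls. Its 0.5 µg/L arrays, at -0.33 to 0.25, lay within or just under the control range. The rises were 0.73 ± 0.17 and 0.80 ± 0.17 with 5 and 50 µg/L (limma adjusted p = 0.004 and 0.00064). At 96 h controls stood at -1.24 to 0.28 (median -0.34), lower than at 24 h, and this difference between the control groups was itself called (-0.63 ± 0.17, adjusted p = 0.0456). It was the only splicing factor probe called between the control groups, where 1.02% of all tested probes were. The call lay close to the threshold. It ended in 10 of 15 fits that left out 1 array (highest adjusted p = 0.172, without 96 h replicate 6), with quantile normalization (0.0674) and with the replicate block (0.0705). With 5 µg/L for 96 h the 4 values of snrpg were 0.63, 0.31, 0.52 and 0.34, all above the controls. Rises at 96 h were 0.62 ± 0.18, 0.86 ± 0.20 and 0.93 ± 0.17 (limma adjusted p = 0.0388, 0.00187 and 4.24e-05). That at 0.5 µg/L ended in 7 of 13 fits that left out 1 array (highest adjusted p = 0.145, without control replicate 6).

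The probe of snrpd2 (5451918), the D2 protein gene, rose by 0.57 ± 0.17 with 50 µg/L at 24 h (limma adjusted p = 0.0178) and measured 0.35 ± 0.17 with 5 µg/L (0.283). Its 24 h controls were at -0.20 to 0.26 (median 0.06) and the 50 µg/L arrays at 0.16 to 1.08 (0.66), with some overlap. That call ended without replicate 1, 2 or 3 of 50 µg/L (0.0612, 0.0757 and 0.0532). At 96 h controls lay between -0.74 and -0.03 (median -0.52), and the 4 arrays of 5 µg/L at -0.01, 0.12, 0.42 and 0.37. The 7 arrays of 50 µg/L lay between -0.10 and 0.72 (0.45). The rises were 0.66 ± 0.18, 0.65 ± 0.20 and 0.86 ± 0.17 (limma adjusted p = 0.0246, 0.0198 and 0.000115). Leaving out 1 array ended the call in 6 of 13 fits at 0.5 µg/L (highest adjusted p = 0.106, without treated replicate 3) and in 2 of 11 at 5 µg/L (0.0824 and 0.0666, without treated replicates 3 and 4).

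The gene of the B protein, snrpb (probe 5459423), had no steady order by dose. Its 24 h controls were at -1.36 to -0.79 (median -1.02), the 5 µg/L arrays at -0.61 to 0.32 (-0.06), all above the controls, and the 50 µg/L arrays at -0.87 to -0.05 (-0.50). It rose by 0.94 ± 0.19 with 5 µg/L (limma adjusted p = 0.000745) and by 0.98 ± 0.20 with 0.5 µg/L at 96 h (0.00128). With 50 µg/L it measured 0.52 ± 0.19 at 24 h (0.0643) and rose by 0.61 ± 0.19 at 96 h (0.0193), a call that ended without the low-signal arrays (0.0969), with quantile normalization (0.0963) and in 4 of 14 fits that left out 1 array (highest 0.0582, without control replicate 2). The remaining probes of the ring were called in none of the 6 comparisons. Those of snrpd3, for the D3 protein, differed by 0.01 ± 0.24 and 0.19 ± 0.24 with 50 µg/L at 24 and 96 h, and those of its relative snrpd3l by 0.55 ± 0.21 and 0.29 ± 0.21. The adjusted p-values by limma were 0.986, 0.631, 0.0818 and 0.371.

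**Figure D3:**
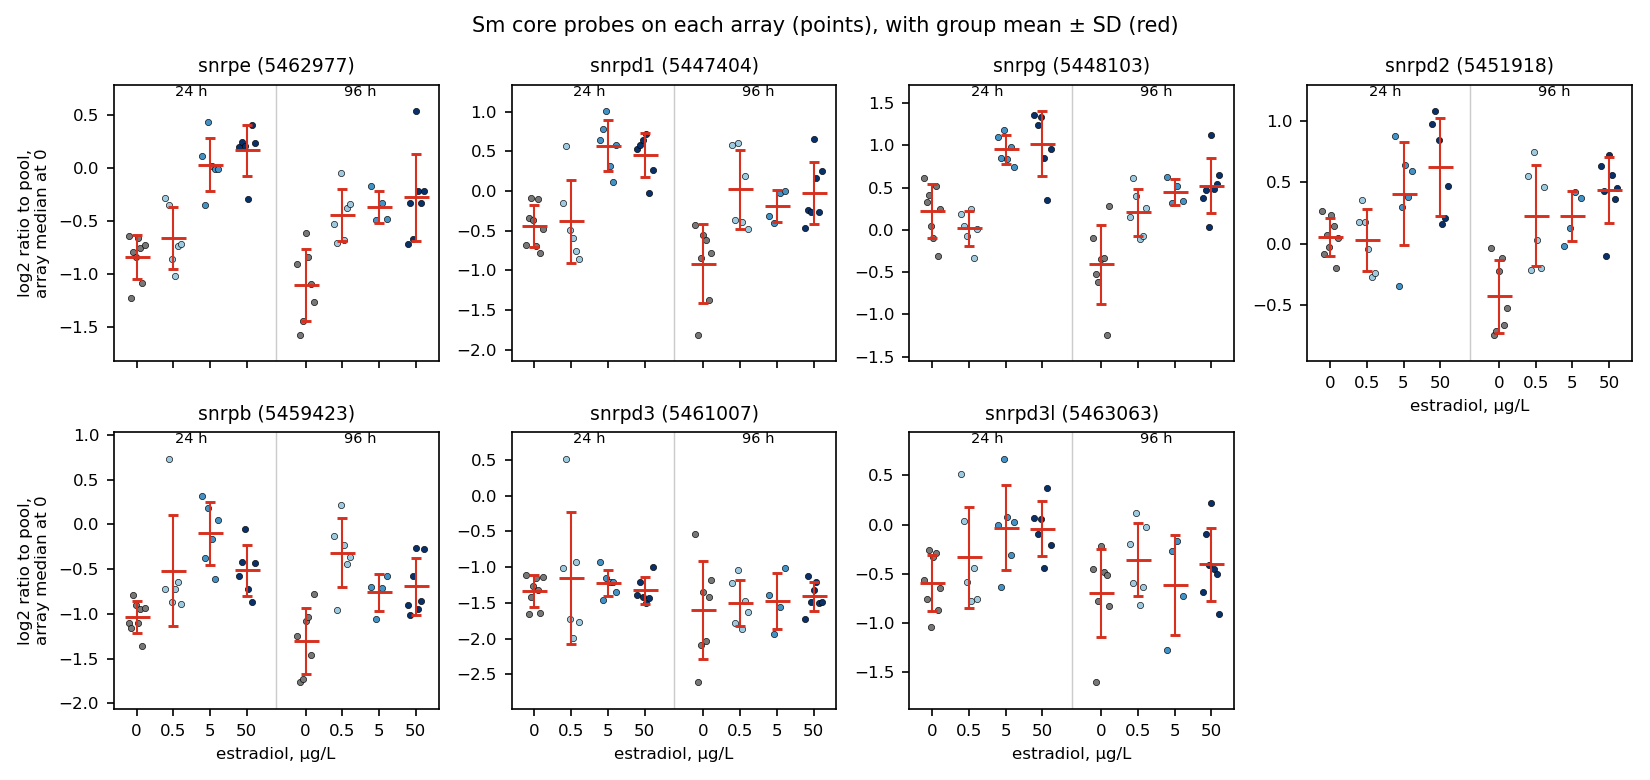
Log2 ratio to the reference pool (y axis, array median at 0) of the 7 Sm core probes on each of the 50 arrays (points) by estradiol dose and time, with the group mean ± SD in red. In snrpe and snrpd1 all arrays of 5 and 50 µg/L lie above the 24 h controls, and the 96 h controls of snrpg and snrpd2 lie lower than the 24 h controls.

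All 7 Sm core probes measured lower on 96 h than on 24 h controls, by 0.10 to 0.63, with only the call for snrpg. The mean of all 95 splicing factor probes on an array was -0.73 to -0.25 on 96 h controls and -0.41 to -0.22 on 24 h controls. These 95 include the Sm core. The median array mean was lower on 96 h than on 24 h controls for LSm proteins (-0.71 against -0.51). For other U1 and U2 proteins it was also lower (-0.79 against -0.61). It was similar for branch site and 3′ splice site recognition (-0.59 against -0.60), SR proteins (0.09 against 0.10) and hnRNPs (-0.34 against -0.30). In these classes the lowest control array was nevertheless lower at 96 h (-1.08 against -0.75, -0.17 against -0.02, and -0.71 against -0.47). Rises of different classes at 96 h share these controls and are not independent. Setting every dose against the controls of both times together ended 5 of the 14 Sm core calls at 96 h: snrpd2 and snrpg with 0.5 µg/L (0.40 and 0.28, limma adjusted p = 0.208 and 0.488) and snrpd1, snrpd2 and snrpg with 5 µg/L (0.48, 0.40 and 0.52, adjusted p = 0.197, 0.202 and 0.0895). The calls of snrpe at all 3 doses and the 5 calls with 50 µg/L held there, with snrpe at 0.52, 0.59 and 0.69. At 24 h pooled controls raised the differences of snrpe to 1.00 and 1.13 with 5 and 50 µg/L. Without the low-signal arrays, the 4 calls with 50 µg/L at 24 h also held, with snrpe at 1.07 (adjusted p = 3.09e-05).

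Of the 5 probes for other proteins of U1 and U2, that of snrpa1 rose in 2 comparisons and 1 of snrnp70 in 1. These calls were with 0.5 or 50 µg/L at 96 h, where 2% and 9.19% of all tested probes rose. The rest of the class was never called against controls. The product of snrpa1 (probe 5455288) binds U2 RNA. It ranged from -3.04 to -0.55 (median -1.70) on 96 h controls and from -1.29 to -0.29 (-0.84) with 50 µg/L, overlapping with controls. It rose by 0.83 ± 0.25 (limma adjusted p = 0.0131) and, with 0.5 µg/L at 96 h, by 0.87 ± 0.26 (0.0466). The first call ended without control replicate 2 (0.60, 0.0713) and with pooled controls (0.52, 0.0986), and the second in 10 of 13 fits that left out 1 array (highest adjusted p = 0.192, without the same control) and without the low-signal arrays (0.051). One probe of snrnp70 (5456136), for the 70K protein that binds U1 RNA, ranged from -2.12 to -1.02 on 96 h controls and from -0.80 to -0.21 with 50 µg/L, with no overlap, and rose by 0.88 ± 0.23 (adjusted p = 0.00471). The other probe of snrnp70 (5447717) measured -0.25 ± 0.22 there, and its 7 treated arrays (0.08 to 0.34) lay inside or under the control range (0.16 to 0.89). The probe of snrpc, for the U1 protein at the 5′ splice site, differed by 0.27 ± 0.21 at 24 h and 0.44 ± 0.21 at 96 h with 50 µg/L (adjusted p = 0.492 and 0.157).

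Of the 12 probes for branch site and 3′ splice site recognition, 2 rose with 5 µg/L and 4 with 50 µg/L at 24 h (2.93% and 7.09% of all tested probes rose). At 96 h 0, 1 and 3 rose with 0.5, 5 and 50 µg/L (2%, 7.12% and 9.19% of all tested probes rose). All calls were for 3 genes of the SF3b complex and for u2af1, and none of the 12 fell. The class medians of the differences with 50 µg/L were 0.27 at 24 h and 0.29 at 96 h.

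The gene sf3b3 (probe 5453653) encodes a large scaffold protein of SF3b. Its ratios were -1.54 to -0.41 on 24 h controls (median -0.97), -0.49 to -0.16 with 5 µg/L (-0.30) and -0.66 to -0.07 with 50 µg/L (-0.32). The treated arrays mostly exceeded the controls, with some overlap. It rose by 0.68 ± 0.19 and 0.65 ± 0.19 (limma adjusted p = 0.0177 and 0.0137), and by 0.55 ± 0.19 with 50 µg/L at 96 h (0.0317). The call with 50 µg/L ended without the low-signal arrays at both times (0.70, adjusted p = 0.0667, and 0.46, 0.141), and at 96 h also in 4 of 14 fits that left out 1 array (highest 0.138, without control replicate 2). All arrays of 0.5 µg/L (-0.82 to -0.34) and of 5 µg/L (-0.73, -0.48, -0.80 and -0.53) lay above the 96 h controls (-2.14 to -0.86), with differences of 0.59 ± 0.20 and 0.57 ± 0.22 that did not pass (adjusted p = 0.0899 and 0.0856).

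The probe of sf3b4 (5468722), whose product touches the transcript near the branch site, rose by 1.00 ± 0.22 with 50 µg/L at 24 h (2.00-fold, limma adjusted p = 0.000915). Its 6 arrays (-0.09 to 0.99, median 0.53) lay above all 8 controls (-0.88 to -0.34, median -0.49). Without the low-signal arrays the difference was 0.68 (adjusted p = 0.126). At 96 h it rose by 0.64 ± 0.22 with 50 µg/L (0.0359), and that call ended in 6 of 14 fits that left out 1 array (highest 0.101, without treated replicate 3) and without the low-signal arrays (0.44, 0.203).

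The small SF3b subunit gene sf3b5 (probe 5458422) was called in 4 of the 6 comparisons. It rose by 0.54 ± 0.16 and 0.58 ± 0.16 with 5 and 50 µg/L at 24 h (limma adjusted p = 0.0304 and 0.00955) and by 0.58 ± 0.19 and 0.48 ± 0.16 at 96 h (0.0292 and 0.0277). Controls ranged from -0.41 to 0.45 at 24 h and from -0.38 to 0.14 at 96 h, and the treated arrays from 0.24 to 1.09, from 0.14 to 0.84, at 0.79, 0.22, 0.32 and 0.58, and from -0.24 to 0.96, so that only 5 µg/L at 96 h cleared its controls. Leaving out 1 array ended 3 of these calls in 4 or 5 fits each (highest adjusted p = 0.118 without treated replicate 3, 0.141 without treated replicate 1 and 0.0925 without treated replicate 4), and only the call with 50 µg/L at 24 h held in all 14. Without the low-signal arrays the 96 h difference with 50 µg/L was 0.29 (adjusted p = 0.24).

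The probe of u2af1 (5457096), the U2AF subunit that reads the end of the intron, rose by 0.68 ± 0.19 with 50 µg/L at 24 h (limma adjusted p = 0.00952, and 0.65 and 0.0768 without the low-signal arrays). Its controls were at -0.84 to -0.14 and the treated arrays at -0.26 to 0.57, with overlap. With 0.5 and 5 µg/L at 24 h it measured 0.60 ± 0.19 and 0.56 ± 0.19 (adjusted p = 0.158 and 0.0704).

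Of the 10 LSm probes 2 rose with 50 µg/L at 24 h and none with 5 µg/L (7.09% and 2.93% of all tested probes rose). At 96 h 0, 3 and 2 rose at the 3 doses (2%, 7.12% and 9.19% of all tested probes rose). The gene lsm6 (probe 5451458) encodes a ring protein shared by the U6 snRNP and the cytoplasmic ring that promotes mRNA decay. It stood at -1.84 to -0.44 (median -1.06) on 96 h controls, at -0.45, 0.02, -0.21 and -0.22 with 5 µg/L and at -0.87 to 0.44 (-0.19) with 50 µg/L, each with some overlap. It rose by 0.83 ± 0.21 and 0.86 ± 0.18 (limma adjusted p = 0.0052 and 0.000362), calls that held in every fit run. With 50 µg/L at 24 h it rose by 0.55 ± 0.18 (0.0377), which ended in 6 of 14 fits that left out 1 array (highest 0.103, without treated replicate 3) and without the low-signal arrays (0.129).

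The probe of lsm1 (5453416), for a protein of the cytoplasmic ring alone, rose by 0.63 ± 0.20 with 5 µg/L and by 0.79 ± 0.17 with 50 µg/L at 96 h (limma adjusted p = 0.027 and 0.000452), and measured 0.07 ± 0.17 and 0.37 ± 0.17 at 24 h. The 96 h controls ran from -1.05 to -0.10 (median -0.57) and the 50 µg/L arrays from -0.39 to 0.87 (0.11). The call at 5 µg/L ended in 4 of 11 fits that left out 1 array (highest adjusted p = 0.0799, without treated replicate 4), with pooled controls (0.188), quantile normalization (0.085) and the replicate block (0.0755). The LSm-domain gene lsm12a rose by 0.47 ± 0.16 with 50 µg/L at 24 h (0.0344). That call ended in 7 of 14 fits without 1 array (highest 0.101, without treated replicate 3), without the low-signal arrays (0.45, 0.201), with the replicate block (0.124) and with only the arrays compared (0.054). Its relative lsm12b rose by 0.48 ± 0.14 with 5 µg/L at 96 h (0.0189, and 0.0922 without treated replicate 4).

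**Figure D4:**
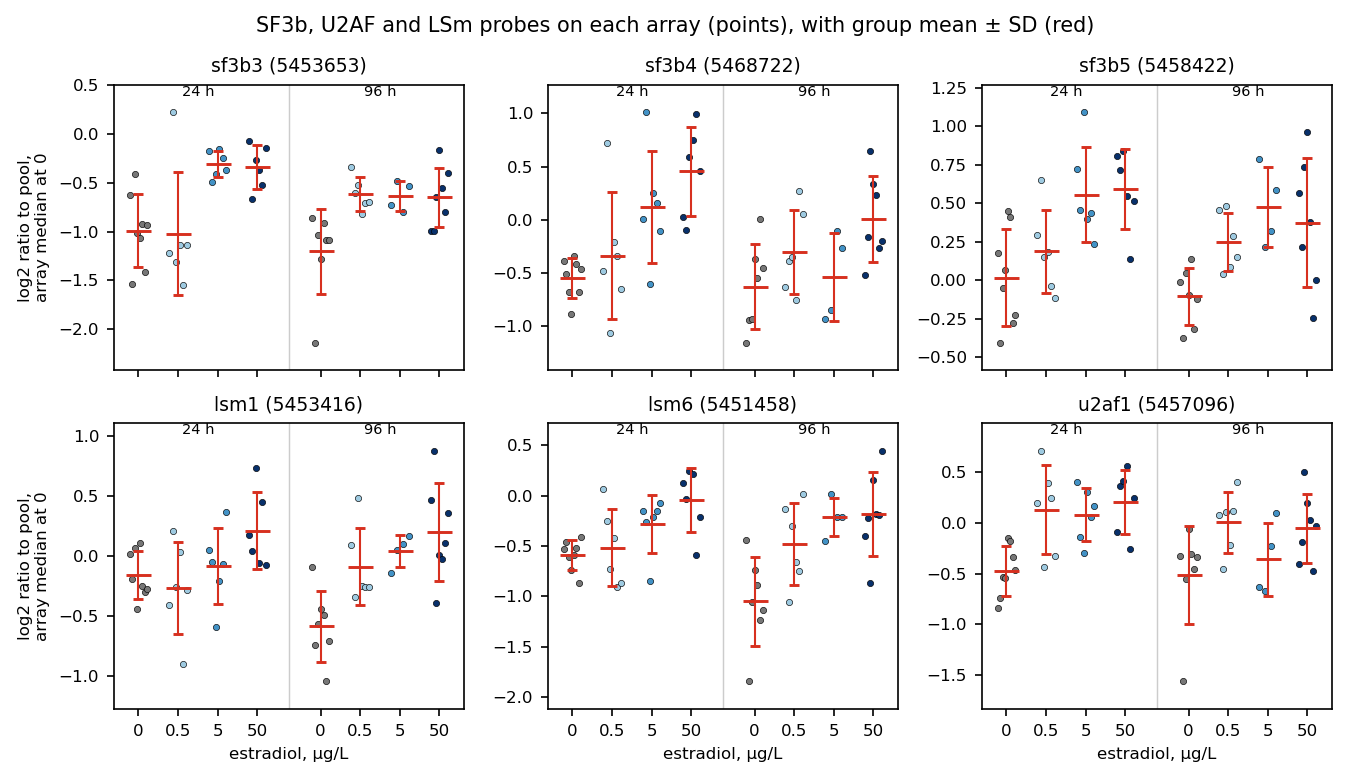
Log2 ratio to the reference pool (y axis, array median at 0) of 3 SF3b probes, the lsm1, lsm6 and u2af1 probes on each array (points) by estradiol dose and time, with the group mean ± SD in red. The 6 arrays of 50 µg/L at 24 h lie above all controls for sf3b4, and lsm1 and lsm6 show low 96 h controls.

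Of the 19 probes for proteins of U5, U4/U6 and the minor snRNPs, none rose with 5 µg/L and 1 with 50 µg/L at 24 h (2.93% and 7.09% of all tested probes rose). At 96 h 0, 2 and 2 rose at the 3 doses (2%, 7.12% and 9.19% of all tested probes rose). For 19 probes these counts are near the shares of all tested probes. The class medians with 50 µg/L were 0.22 and 0.17 at 24 and 96 h. The U5 protein gene snrnp40 rose by 0.62 ± 0.19 with 50 µg/L at 24 h, with all 6 arrays (-0.09 to 0.40) above the controls (-0.62 to -0.20), by limma's fit (adjusted p = 0.016, and 0.59 and 0.102 without the low-signal arrays). The gene snrnp25, for a protein of the minor spliceosome, rose by 0.57 ± 0.17 with 5 µg/L at 96 h, where its 4 arrays gave 1.23, 1.06, 0.97 and 0.95 against controls of 0.18 to 0.84, and by 0.45 ± 0.15 with 50 µg/L. Its adjusted p-values by limma were 0.0221 and 0.0271, and both calls ended without single arrays (highest 0.0874 without treated replicate 1, and 0.0798 without treated replicate 4). That with 50 µg/L also ended without the low-signal arrays (0.40, 0.0691). With 5 µg/L at 96 h prpf3 (probe 5461029), a U4/U6 protein gene, rose by 0.68 ± 0.18 (0.00618), with its 4 arrays at 0.08, 0.49, -0.09 and 0.30, all above the controls. The other prpf3 probe (5455338) measured 0.05 ± 0.26 (0.935). Finally prpf19, whose product is a ubiquitin ligase that joins the active spliceosome, rose by 0.53 ± 0.16 with 50 µg/L at 96 h (0.0175, 0.45 and 0.0604 without control replicate 2, and 0.48 and 0.0631 without the low-signal arrays). Differences with 50 µg/L that did not pass were 0.49 ± 0.25 at 24 h and 0.56 ± 0.25 at 96 h for prpf38b, 0.51 ± 0.19 at 24 h for snrnp48 and 0.31 ± 0.12 at 96 h for snrnp27 (adjusted p by limma 0.215, 0.108, 0.0596 and 0.0639).

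In the 6 comparisons with controls, SR proteins were the only class with a probe that fell. Of 19 probes, 1 rose with 5 µg/L at 24 h, 2 rose and 1 fell with 50 µg/L, 1 rose with 0.5 µg/L at 96 h, 1 fell with 5 µg/L, and 1 rose and 1 fell with 50 µg/L. Of all tested probes 2.93% and 7.09% rose and 3.15% and 5.7% fell with 5 and 50 µg/L at 24 h. The shares at the 3 doses at 96 h were 2%, 7.12% and 9.19% for rises and 1.25%, 5.48% and 8.78% for falls. The class medians with 50 µg/L were 0.01 at 24 h and 0.07 at 96 h. All 3 falls belong to 1 probe of srsf2a (5464877), whose product binds exonic enhancers.

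That probe of srsf2a stood at 1.41 to 2.18 (median 1.78) on 24 h controls and at 0.06 to 1.60 (0.93) with 50 µg/L. At 96 h its controls were at 1.60 to 2.55 (2.18), the 5 µg/L arrays at 1.097, 1.61, 1.88 and 0.71 and the 50 µg/L arrays at 0.73 to 1.81 (1.35), so that treated arrays were mostly below the controls with some overlap. It fell by 0.84 ± 0.21 with 50 µg/L at 24 h and by 0.71 ± 0.24 and 0.75 ± 0.21 with 5 and 50 µg/L at 96 h (limma adjusted p = 0.0029, 0.043 and 0.00656). The call with 5 µg/L at 96 h ended in 6 of 11 fits that left out 1 array (highest 0.246, without treated replicate 4), and that with 50 µg/L at 96 h ended with quantile normalization (-0.52, 0.109). The second probe of the gene (5466339) was called in the opposite direction with 50 µg/L at 24 h: its 6 arrays (0.41 to 1.14) lay above the controls (-0.62 to 0.35), and it rose by 0.63 ± 0.21 (adjusted p = 0.0352). This rise ended in 6 of 14 fits that left out 1 array (highest 0.109, without treated replicate 2), with the replicate block (0.112) and without the low-signal arrays (0.125). Which transcript of srsf2a each probe detects is not given in the sources used here, so a direction for the gene is uncertain.

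The probe of srsf10b, a relative of the human splicing repressor SRSF10, rose by 0.85 ± 0.19 and 0.83 ± 0.19 with 5 and 50 µg/L at 24 h (limma adjusted p = 0.00241 and 0.00145). Its 24 h controls ranged from -0.74 to -0.01 (median -0.48), with 5 µg/L at 0.04 to 0.85 (0.47) and 50 µg/L at 0.18 to 0.66 (0.40), both wholly above the controls, and both calls held in every fit run. At 96 h it measured 0.30 ± 0.22 and 0.19 ± 0.19 (0.456 and 0.544), and the difference between the times was not called at either dose. One probe of srsf7a (5459195), an SR protein that also aids mRNA export, rose by 0.71 ± 0.22 with 50 µg/L at 96 h (0.0156, 0.44 and 0.0921 without control replicate 2, and 0.67 and 0.0512 without the low-signal arrays), while the other srsf7a probe (5464710) measured 0.18 ± 0.20 (0.587). The single rise with 0.5 µg/L at 96 h, named after its value was seen, was that of srsf6a (0.77 ± 0.22, adjusted p = 0.0373), another SR protein gene. Whether this call held in the other settings is not given here. Differences that did not pass were 0.53 ± 0.20 for srsf11 with 50 µg/L at 24 h (0.0787), -0.60 ± 0.23 for srsf5a (5469486) and -0.35 ± 0.13 for srsf1b (5461619) with 50 µg/L at 96 h (0.0602 and 0.0635).

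The hnRNPs were the largest class. Of 23 probes, 1 and 2 rose with 5 and 50 µg/L at 24 h (2.93% and 7.09% of all tested probes rose). At 96 h 0, 1 and 2 rose at the 3 doses (2%, 7.12% and 9.19% of all tested probes rose). For 23 probes these counts are near the shares of all tested probes. The class medians with 50 µg/L were 0.12 and 0.06. One probe of hnrnpd (5455634), whose product binds AU-rich elements of mRNAs, rose by 0.93 ± 0.29 with 5 µg/L and by 1.04 ± 0.25 with 50 µg/L at 96 h (2.05-fold, limma adjusted p = 0.0277 and 0.00187). Its 96 h controls stood at -0.52 to 1.38 (median 0.76), the 5 µg/L arrays at 1.61, 1.08, 1.43 and 2.13 and the 50 µg/L arrays at 0.79 to 2.61 (1.77), with overlap. The call at 5 µg/L ended in 4 of 11 fits that left out 1 array (highest 0.146, without treated replicate 4). This was the brightest splicing factor probe, with a median Cy5 brightness of 38652 units over background, and its spot was at the scanner's upper limit on 1 of 7 arrays of 50 µg/L at 96 h and 1 of 6 of 0.5 µg/L at 24 h. The other hnrnpd probe (5460115) measured 0.09 ± 0.17 and -0.02 ± 0.15 at the same doses (0.827 and 0.94).

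At 24 h hnrnpul1, for a protein of the hnRNP U family, rose by 0.74 ± 0.17 with 5 µg/L and by 0.57 ± 0.17 with 50 µg/L (limma adjusted p = 0.0031 and 0.0175), and at 96 h it measured 0.11 ± 0.20 and -0.12 ± 0.17. Its 6 arrays of 50 µg/L (-0.19 to 0.55) lay above the controls (-0.62 to -0.23), and the call ended without replicate 4 (0.50, 0.0625), without replicate 5 (0.49, 0.0611) and without all 3 low-signal arrays (0.36, 0.355). One probe of hnrpkl (5463096), a relative of the hnRNP K gene, rose by 0.53 ± 0.17 with 50 µg/L at 24 h (0.0227, and 0.45 and 0.0915 without replicate 3, 0.47 and 0.123 without the low-signal arrays, and 0.48 and 0.052 with the replicate block). The other hnrpkl probe (5457926) measured 0.15 ± 0.20 (0.723). The probe of hnrnpabb, a relative of HNRNPAB, rose by 0.65 ± 0.17 with 50 µg/L at 96 h (0.005, and 0.48 and 0.0636 without the low-signal arrays). Differences with 50 µg/L that did not pass were 0.47 ± 0.17 for hnrnph1l and -0.28 ± 0.12 for hnrnpdl at 24 h (0.0531 and 0.133) and 0.30 ± 0.14 for hnrpl (5457748) at 96 h (0.157).

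**Figure D5:**
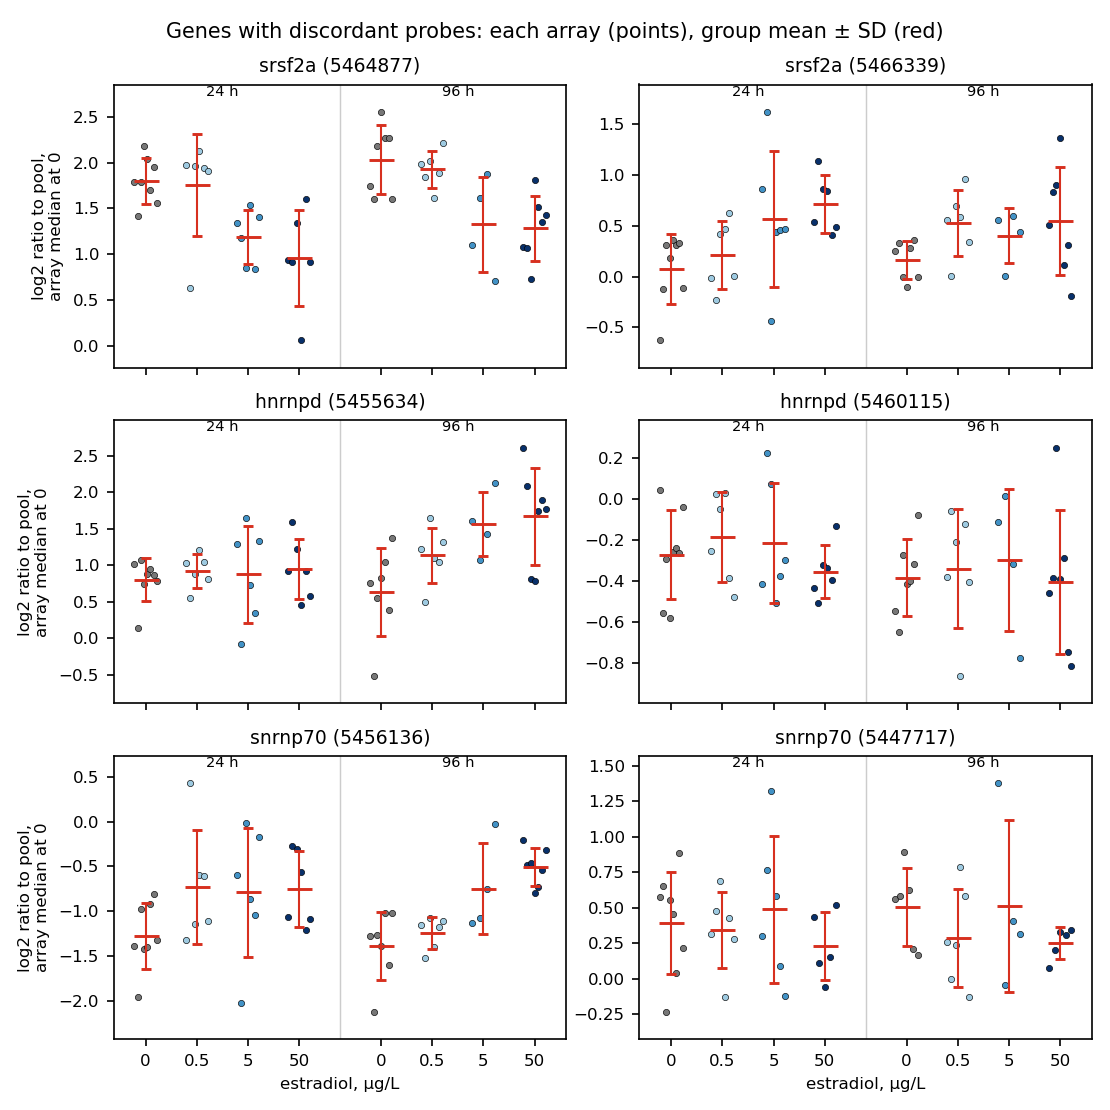
Log2 ratio to the reference pool (y axis, array median at 0) on each array (points) by estradiol dose and time, with the group mean ± SD in red, for the pairs of probes of srsf2a, hnrnpd and snrnp70. At 50 µg/L the left and right srsf2a probes move in opposite directions at 24 h (-0.84 and 0.63), and at 96 h the left probes of hnrnpd and snrnp70 lie higher (1.04 and 0.88) while the right ones stay near controls (-0.02 and -0.25). These right probes of hnrnpd and snrnp70 were far dimmer than the left ones.

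Probes of 1 gene often did not vary together. Of the 80 genes 14 had several probes, 29 probes in all. Pearson's r between probes of a gene over all arrays, given as a description since arrays of a group share their treatment, was 0.66 for srsf6b and 0.65 for u2af2b (50 arrays each), the highest of 16 pairs, of which 9 were above 0 and 7 below. It was -0.19 for hnrnpd (50 arrays), -0.22 for srsf2a (50 arrays, and 0.11 within groups) and -0.16 for snrnp70 (46 arrays). The probes of a pair could differ widely in brightness. Median Cy5 over background was 160 for snrnp70 probe 5447717 and 8463 for 5456136, and 337 for hnrnpd probe 5460115 and 38652 for 5455634. The dimmer probes were above background on 22 and 21 of 35 treated arrays. Both srsf2a probes were bright (3338 and 5493). Whether low signal lowered r was not tested. A call for such a gene is therefore a statement about 1 probe.

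Groups that did not overlap were fewer than calls, and at 96 h they were not those of the Sm core with 0.5 and 50 µg/L. All treated arrays lay above all controls for 5 splicing factor probes with 5 µg/L at 24 h (1.31% of all tested probes did), 7 with 50 µg/L (3.16%), and 1, 9 and 1 with 0.5, 5 and 50 µg/L at 96 h (1.29%, 4.75% and 3.12%). The 5 at 5 µg/L and 24 h were srsf10b, snrpb, snrpd1, snrpe and snrpg. With 0.5 and 50 µg/L at 96 h the single probes were those of sf3b3 and snrnp70 (5456136), so none of the Sm core, and the 1 of 95 at 50 µg/L is below the share of all tested probes. The 9 at 5 µg/L and 96 h, where only 4 arrays had to clear the controls, were snrpd1, snrpd2, snrpe, snrpg, sf3b3, sf3b5, lsm12b, prpf3 and snrnp25. All treated arrays lay below all controls for 2 probes with 5 µg/L at 96 h (3.82% of all tested probes), one each of srsf5a and prpf38a, named after their values were seen, and for none in the other 5 comparisons (2.36% and 2.81% with 50 µg/L at 24 and 96 h). With 0.5 µg/L at 24 h none lay wholly above (0.254%).

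The treated groups were also compared directly, from the scanner brightness of both dyes. With 50 against 0.5 µg/L at 24 h, 5 of 95 probes were higher and 1 lower (6.32%, against 10.1% of all tested probes, of which 6.48% were higher and 3.61% lower). The higher ones were snrpg (1.02 ± 0.18), snrpd1 (0.85 ± 0.23), snrpe (0.84 ± 0.18), sf3b4 (0.81 ± 0.26) and sf3b3 (0.73 ± 0.21), with limma adjusted p of 8.05e-05, 0.0114, 0.000957, 0.0443 and 0.0174. The lower one was the srsf2a probe 5464877 (-0.81 ± 0.24, adjusted p = 0.0215). Without replicate 2 of 0.5 µg/L, the array with high ovary markers, 11 of the 95 were called. The share of all tested probes called in that fit is not given here. Without the low-signal arrays the calls of snrpe and snrpg held, and those of snrpd1 (0.87, 0.0581), sf3b3 (0.79, 0.069) and sf3b4 (0.47, 0.568) ended. Leaving out 1 array ended the call of sf3b4 in 9 of 12 fits (highest 0.152, without 0.5 µg/L replicate 3), of srsf2a in 5 (0.0956, without 50 µg/L replicate 4) and of sf3b3 in 3 (0.0667, without 0.5 µg/L replicate 5). At 96 h no splicing factor probe differed past the threshold between 50 and 0.5 µg/L (4.71% of all tested probes did, 2.46% upward). Limma gave 4 of them an unadjusted p under 0.05, a looser threshold at which the share of all tested probes is not given here. The differences between these doses at 96 h were 0.17 ± 0.17 for snrpe, -0.05 ± 0.22 for snrpd1 and 0.32 ± 0.17 for snrpg.

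Whether the estradiol effect differed between 96 and 24 h was tested in the same fit as the dose effects. None of the 95 probes was called at 0.5, 5 or 50 µg/L, where 0.758%, 1.27% and 0.195% of all tested probes were called (0.059% downward at 0.5 µg/L). Limma gave 11, 8 and 5 of the 95 an unadjusted p under 0.05. The share of all tested probes at that looser threshold is not given here. At 0.5 µg/L the measured differences between the times were 0.82 ± 0.25 for snrpg, 0.88 ± 0.30 for snrpd1 and 0.48 ± 0.23 for snrpe (limma adjusted p = 0.123, 0.216 and 0.474). A dose of 0.5 µg/L that called Sm core probes at 96 h and none at 24 h was thus not shown to act differently at the 2 times. Without replicate 2 of 0.5 µg/L at 24 h, 2 probes were called higher at 96 h in this comparison, and without control replicate 7 at 96 h 1 was.

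Other genes of the splicing machinery, from a list of 135 that the naming rule does not take, were tested with 159 probes for 109 genes. With 5 and 50 µg/L at 24 h 6 and 14 rose and 0 and 1 fell, and at the 3 doses at 96 h 5, 10 and 18 rose and 0, 3 and 3 fell. Among all tested probes 2.93% and 7.09% rose and 3.15% and 5.7% fell at those 2 doses at 24 h. At 96 h 2%, 7.12% and 9.19% rose and 1.25%, 5.48% and 8.78% fell. With 50 µg/L 9.43% of the 159 probes were called in either direction at 24 h and 13.2% at 96 h, against 12.8% and 18% of all tested probes. Their median differences were 0.13 and 0.10. At 24 h the smallest p-values with 50 µg/L belonged to wdr77 (0.92 ± 0.16) and prmt5 (0.90 ± 0.17), whose products form the complex that methylates Sm proteins before ring assembly. Next came 1 of 3 probes of cwc15 (5458364, 0.98 ± 0.21), of the complex around Prp19, and rnps1 (0.76 ± 0.18), of the exon junction complex. Their adjusted p-values by limma were 2.48e-05, 8.87e-05, 0.000432 and 0.00179. The wdr77 value is that of probe 5452771, and its second probe (5454810) rose by 0.67 ± 0.18 (0.00595), whereas the other cwc15 probes measured 0.41 ± 0.16 and -0.13 ± 0.23 (0.0851 and 0.811). At 96 h the same cwc15 probe rose by 1.38 ± 0.21, ilf2 by 1.09 ± 0.23 and 1 of 3 probes of ybx1 (5457967), an RNA-binding cold shock protein gene, by 0.91 ± 0.19, and clk4a, for a kinase that phosphorylates SR proteins, fell by 0.88 ± 0.15 (adjusted p = 8.06e-07, 0.000378, 0.000276 and 2.07e-05). The other probes of both genes were not called there, with -0.08 ± 0.16 and 0.04 ± 0.22 for cwc15 and -0.31 ± 0.16 and -0.03 ± 0.17 for ybx1 (0.784, 0.932, 0.196 and 0.933).

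Some markers of cell types were also called against same-time controls. Of all tested probes 2.93% and 7.09% rose and 3.15% and 5.7% fell with 5 and 50 µg/L at 24 h. The shares at the 3 doses at 96 h were 2%, 7.12% and 9.19% for rises and 1.25%, 5.48% and 8.78% for falls. Of 12 hepatocyte probes 5 and 9 fell with 5 and 50 µg/L at 24 h, and 3, 9 and 9 fell at the 3 doses at 96 h. Their array means went from 2.15 to 3.07 on 24 h controls to 1.39 to 2.29 with 5 µg/L and 0.17 to 1.86 with 50 µg/L, and from 2.25 to 3.09 on 96 h controls to 0.68 to 1.53 with 50 µg/L. Of 20 probes for genes of cycling cells 7 rose with 5 µg/L and 4 with 50 µg/L at 24 h, followed by 3, 1 and 4 at the 3 doses at 96 h, and their array means were -1.90 to -1.31 on 24 h controls, -1.35 to -0.51 with 5 µg/L and -1.84 to -0.82 with 50 µg/L. At 96 h these means were -2.09 to -1.32 on controls and -1.51 to -0.82, -1.98 to -1.41 and -1.75 to -0.85 at the 3 doses. Of 8 probes of the testis list 3 rose with 5 µg/L and 5 with 50 µg/L at 24 h, and at 96 h 3, 2 and 3 did. With 50 µg/L at 24 h 4 of 9 cholangiocyte probes and 1 of 11 macrophage and neutrophil probes fell, and at 96 h 3 of 12 exocrine pancreas probes rose. No probe of the ovary (7), erythrocyte (8) or lymphocyte (3) lists was called in the 6 comparisons, nor was any endothelial (9) or stellate cell (10) probe except 1 lower and 1 higher with 50 µg/L at 96 h. Lists this short can hold no call at the shares of all tested probes, so no lack of change is shown. The part of any of these cell types in the splicing factor results was not tested.

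On control arrays the ratios of splicing factors to the pool of male and female liver leaned below 0, with a median over the 95 probes of -0.29, against 0.01 for all tested probes. A dye effect stays in such ratios, so they are given as a description. A control median under -1 was found for 10 of the 95 probes (10.5%, against 10.4% of all tested probes). One over 1 was found for 2 of the 95, and for 5.8% of all tested probes. The lowest, named after their values were seen, were sf3a3 (-3.84), a subunit of SF3a, 1 of the 3 probes of prpf8 (5461858, -3.34), the core protein of U5, and lsm14b (-3.16). The highest were the srsf2a probe 5464877 (1.79) and srsf9 (1.03). On replicate 2 of 0.5 µg/L at 24 h, the array with high ovary markers, the prpf8 probe stood at 1.16 and lsm14b at 0.66, while on the other 5 arrays of the group they were at -3.44 to -1.97 and -3.40 to -1.94. The probe of sf3a3 did not share this, at -3.91 against -4.40 to -3.20.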

How the data were processed

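Per the labels' protocols, 10 µg of total RNA of each male liver was copied with Cy5-dUTP and the pool with Cy3-dUTP. The authors deposited log2 ratios (Cy5 over Cy3) for 50 arrays and, for the 35 treated arrays, scanner files that per the file headers hold the brightness (intensity) of spot and background and the percent of spot pixels above background. Scanner files of the 15 controls were not analysed here. The normalization of the ratios is not given in the sources used here. All arrays had 1 dye orientation.

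Each array was centred on its median. Group means of 8 groups were fitted with limma 3.58.1 (R 4.3.3; lmFit, eBayes) to the 22046 probes with values on 3 or more arrays of each group, with Benjamini-Hochberg adjustment over all of them. An adjusted p under 0.05 is a call, and "rose" and "fell" are used of calls alone. For the direct comparison of doses, scanner medians were corrected with normexp (offset 50) and loess within arrays, and 6 treated groups were fitted. Spots counted as above background had more than 50% of their pixels above it. Symbols were updated through the RefSeq table, and 3 that are synonyms of several genes (hnrpa1, hnrpl, sfrs3) were kept. Named probes were snrpe, up to 4 per class with the smallest p with 50 µg/L at each time, up to 4 called in each other comparison, every one that fell, and genes with opposite calls. Members and lists were chosen with earlier results of these data known. The fit was tested on simulated data for the 6 comparisons with controls. Of changes of 0.5 on the log2 scale 7.46% to 19.4% were called. For changes of 1 it was 68.7% to 80.6%, and for changes of 2 it was 97% to 100%. The number of changed probes was set in the simulation, so these shares need not hold for the real arrays. The promoter motif count planned for these genes was not run, since no sequences were used here. Alternatives were no centring, quantile normalization, filters on missing values and dim probes, array weights, the replicate number as a block, only the arrays compared, pooled controls, 1 probe a gene, leaving out each array, for the direct comparison the deposited ratios or no background correction, and, added after seeing the data, leaving out the low-signal arrays or the 0.5 µg/L array that stood apart.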

Additional observations from a re-analysis of the deposited data

Results flagged for a closer look

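For 16 splicing factor probes, the highest and lowest array of each group of 4 to 10 was compared with its nearest neighbour by Dixon's test. Of 128 groups 10 held an array far from the others, and chance gives about 1 in 20. On replicate 2 of 0.5 µg/L at 24 h, the array with high ovary markers, 4 probes stood apart: srsf10b at 0.92 (next -0.17), snrpb at 0.73 (next -0.64), sf3b3 at 0.23 (next -1.14) and the srsf2a probe 5464877 at 0.63 (next 1.90). Replicate 4 of 50 µg/L, a low-signal array at both times, was low for snrpe at 24 h (-0.29, next 0.20) and high at 96 h (0.54, next -0.21). On controls sf3b3 was low on 96 h replicate 2 (-2.14, next -1.29), srsf10b high on 96 h replicate 7 (0.28, next -0.11) and hnrnpd (5455634) low on 24 h replicate 2 (0.13, next 0.74). The last was lsm6 on replicate 3 of 5 µg/L at 24 h (-0.85, next -0.26).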

How the results depend on the processing

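No called difference of a named probe changed sign under any setting run, and 27 of 67 kept their call in all of them. Array weights called 18 probes with 5 µg/L and 26 with 50 µg/L at 24 h, 16 with 0.5 µg/L at 96 h, 2 for the time difference of 0.5 µg/L, and 20 and 3 for 50 against 0.5 µg/L at 24 and 96 h. Pooled controls called 18 and 25 with 5 and 50 µg/L at 24 h. Only the arrays compared gave 1 with 0.5 µg/L at 96 h, and 3 and 1 for 50 against 0.5 µg/L at 24 and 96 h. Without the low-signal arrays 8 were called with 50 µg/L at 24 h and 12 at 96 h, and without the array that stood apart 2 for the time difference of 0.5 µg/L and 11 for 50 against 0.5 µg/L at 24 h. Quantile normalization gave 7 with 5 µg/L at 96 h and 0 between control groups. The cause of these shifts was not tested. For the settings of this section, including the fits without 1 array, the shares of all tested probes called are not given here. Whether the counts of other probes shifted alike is therefore not shown. The replicate numbers did not pair arrays (median r of same-numbered deviations -0.016 over 157 pairs, -0.0067 over 932 others; 10 of 50 arrays were closest to their own number). With the number as a replicate block 0, 7 and 13 probes were called at the 3 doses at 24 h, 6, 8 and 18 at 96 h, and 0 between control groups.

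Leaving out 1 array gave 0 calls with 0.5 µg/L at 24 h, 7 to 12 with 5 µg/L and 11 to 19 with 50 µg/L, and at 96 h 2 to 10, 5 to 14 and 11 to 22. It gave 0 to 2, 0 and 0 for the time differences, 0 to 1 between control groups, and 3 to 11 and 0 for 50 against 0.5 µg/L. The count with 0.5 µg/L at 96 h fell to 2 without control replicate 2 or treated replicate 3 and to 3 without control replicate 3 or 6 or treated replicate 1 or 6. With 5 µg/L at 96 h it was 5 without treated replicate 4 and 7 without treated replicate 1 or control replicate 6, and with 50 µg/L 11 without control replicate 2. For 50 against 0.5 µg/L at 24 h it was 11 without 0.5 µg/L replicate 2 and 3 without its replicate 1 or 5. A block for slide or scan date was not run, since the files used give neither. The number of arrays limits the precision.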
